A study of Mus musculus with 8 samples.

Results

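The genes of sterol and fatty acid synthesis were followed through the LPS response of FURIN-deficient and WT mouse macrophages. The 32 genes were chosen by name for what they do, with earlier results of these data known: 7 of the mevalonate pathway, 11 of the steps from squalene to cholesterol, 6 of sterol sensing, transcription and transport, and 8 of fatty acid synthesis and desaturation. All 32 were found on the array, among 37018 genes and transcripts, and all 32 passed the filter on low intensity that left 36947 for testing. They had 1 to 3 probes each, and the brightest probe of a gene was used.

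The macrophages were washed from the peritoneal cavity of C57BL/6 mice, left to adhere for 24 h, and collected unstimulated (0 h) or after 1, 4 or 24 h with 1 μg/ml of LPS, a component of the wall of Gram-negative bacteria. The study's methods do not give these 24 h of adherence and name 1 h of incubation before stimulation. The KO mice (LysMCre-fur(fl/fl)) lack FURIN, a protease that cleaves precursor proteins, in cells that express the lysozyme gene Lyz2, that is, macrophages and neutrophils, and the WT mice were littermates. The ages of the mice used for the arrays were not given in the sources used here, and no source said how many animals gave each RNA. Each time was read from a sample's title and matches those in the study's methods, while the deposited growth protocol gives 4 h of stimulation for every sample. Each time point has 2 arrays of 2 colours, each with KO and WT RNA of that time, and the sources call them biological replicates, so that p-values measure the spread between 2 samples a group. KO RNA carried Cy5 in replicate 1 and Cy3 in replicate 2, so that replicate and dye orientation were the same factor. In all groups the serum in the medium had been lowered 1 h before stimulation, and serum is a source of sterols.

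Cholesterol is built from acetyl-CoA by way of mevalonate and squalene, and fatty acids are built from the same precursor by acetyl-CoA carboxylase and fatty acid synthase. Most of these genes are targets of the SREBP transcription factors, the products of Srebf1 and Srebf2, which leave the endoplasmic reticulum with the escort protein SCAP when sterols are low and are held there by the INSIG proteins when sterols are high. In macrophages these pathways supply membrane lipids, and their oxysterol and desaturated fatty acid products act on the nuclear receptors LXR, on inflammatory genes and on SREBP itself.

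Promoter sequences were read from RefSeq (GRCm38.p6) as windows from 250 bases before to 50 after a start of transcription, and 25 of the 32 genes had a window. The NF-Y box, CCAAT read on both strands, was present in 20 of these 25 genes (80%), and in 41.1% of the 27025 genes of the table. The sterol response element in the form TCACNCCAC was present in 1 of the 25 genes, Hmgcs1, at -137 of the start, and in 1.44% of all genes. An E-box (CACGTG) was found in 5 of 25 genes, Hsd17b7, Sc5d, Dhcr7, Insig1 and Scap, against 8.09% of all. The LXR direct repeat (AGGTCA on both sides of NNNN) and the NF-kB motif GGGANTTCC were found in 0 of 25 genes, against 0.0148% and 1.92% of all genes. No match of a motif overlapped a match of another in these windows. The windows of 3 genes that rose within 1 h of LPS (Hmgcs1, Idi1, Insig1) and of 3 genes that fell at 4 h (Mvk, Mvd, Ebp) are shown to set both kinds side by side, on the strand of the gene, with sterol response elements and NF-Y boxes in capitals (ATTGG is CCAAT on the opposite strand).
Hmgcs1, chr13:119690101-119690400, plus strand: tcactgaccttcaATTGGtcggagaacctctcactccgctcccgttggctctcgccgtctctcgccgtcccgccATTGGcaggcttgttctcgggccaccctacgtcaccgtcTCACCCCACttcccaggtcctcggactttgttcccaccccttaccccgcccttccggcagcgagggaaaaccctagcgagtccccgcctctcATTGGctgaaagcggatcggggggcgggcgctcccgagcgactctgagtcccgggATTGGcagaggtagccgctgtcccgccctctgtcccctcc
Idi1, chr13:8885356-8885655, plus strand: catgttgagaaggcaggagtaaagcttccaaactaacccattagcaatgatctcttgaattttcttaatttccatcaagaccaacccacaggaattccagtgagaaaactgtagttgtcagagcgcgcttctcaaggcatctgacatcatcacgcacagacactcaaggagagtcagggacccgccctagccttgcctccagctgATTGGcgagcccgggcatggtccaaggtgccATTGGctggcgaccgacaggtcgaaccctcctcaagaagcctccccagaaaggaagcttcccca
Insig1, chr5:28071162-28071461, plus strand: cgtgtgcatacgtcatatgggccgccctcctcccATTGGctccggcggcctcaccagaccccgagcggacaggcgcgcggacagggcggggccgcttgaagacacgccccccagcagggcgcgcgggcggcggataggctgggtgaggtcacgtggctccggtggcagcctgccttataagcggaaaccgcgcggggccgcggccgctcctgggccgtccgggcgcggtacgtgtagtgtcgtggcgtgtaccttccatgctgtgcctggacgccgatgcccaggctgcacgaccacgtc
Mvk, chr5:114444019-114444318, plus strand: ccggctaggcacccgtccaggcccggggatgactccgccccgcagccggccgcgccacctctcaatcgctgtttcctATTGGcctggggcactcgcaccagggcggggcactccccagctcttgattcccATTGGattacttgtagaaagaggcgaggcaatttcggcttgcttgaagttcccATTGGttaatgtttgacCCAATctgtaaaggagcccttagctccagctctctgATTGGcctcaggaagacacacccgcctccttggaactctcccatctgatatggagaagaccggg
Mvd, chr8:122443373-122443672, minus strand: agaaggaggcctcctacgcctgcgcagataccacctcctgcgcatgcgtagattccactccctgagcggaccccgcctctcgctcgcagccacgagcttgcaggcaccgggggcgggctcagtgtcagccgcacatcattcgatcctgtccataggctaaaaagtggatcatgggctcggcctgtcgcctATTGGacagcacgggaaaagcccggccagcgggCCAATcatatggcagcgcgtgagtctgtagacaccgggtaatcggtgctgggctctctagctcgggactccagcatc
Ebp, chrX:8193463-8193762, minus strand: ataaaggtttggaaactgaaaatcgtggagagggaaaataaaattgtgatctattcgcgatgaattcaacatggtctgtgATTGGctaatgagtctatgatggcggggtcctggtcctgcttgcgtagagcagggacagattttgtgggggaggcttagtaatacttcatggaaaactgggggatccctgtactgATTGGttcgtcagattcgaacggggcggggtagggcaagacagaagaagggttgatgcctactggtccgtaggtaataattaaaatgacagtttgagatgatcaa
Hmgcs1 held 4 NF-Y boxes, at -237, -176, -45 and +11 of its start, and Mvk held 5, at -173, -120, -67, -50 and -14. Both kinds of promoter, of genes that rose at 1 h and of genes that fell at 4 h, held the box. These matches are letters in a window and were not tested for binding.

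The checks of the samples bear on several results. The Furin log2 KO/WT ratio was -0.59 and -0.85 unstimulated, -0.56 and -0.55 at 1 h, and -0.59 and -0.69 at 24 h, but 0.0012 and 0.33 at 4 h, so Furin was not lower in the 4 h RNA labelled KO. Whether the Furin probe lies inside the deleted part was not checked. Every 4 h value of KO macrophages, also where both genotypes are counted together, comes from this RNA labelled KO. Lyz2, the gene that carries the Cre, was lower in KO RNA on all 8 arrays, with a log2 ratio of -1.04 and -1.13 at 4 h. All 4 macrophage markers matched (Adgre1, Itgam, Csf1r, Mertk) were well above background in every group. Their summed intensity was 273912 to 297203 in unstimulated WT macrophages, 118390 to 134262 at 4 h and 100915 to 123935 at 24 h, and in KO 258731 to 261960, 87620.1 to 118891 and 95301.5 to 96767.2. None of the 4 adipocyte markers (Adipoq, Plin1, Lep, Cidec) was well above background on both arrays of a group, and Lep was on 1 array each of WT at 0 h, WT at 4 h and KO at 0 h. B cell markers (4 of 4) were above background in every group, with sums of 64245.7 to 83671.6 in unstimulated WT, 35464.6 to 42463.8 at 4 h and 37892.2 to 39420.7 at 24 h, and of 71943.2 to 104434, 27036.2 to 41115.1 and 41490 to 47588.1 in KO. At 4 h both sums thus lay below all unstimulated ones, as did that of large peritoneal macrophages (12252 to 12912.9 in WT, 12651 to 15277.5 in the RNA labelled KO), while the mast cell sum did not (7373.26 to 8822.68 in WT, 7868.74 to 14959.4 in the RNA labelled KO). The sum of 3 markers of large peritoneal macrophages (Gata6, Timd4, Icam2) was 21820.5 to 21998.8 unstimulated and 7577.74 to 7619.22 at 24 h in WT, and 21627.7 to 24321.2 and 9182.94 to 9696.7 in KO. That of 3 mast cell markers (Cpa3, Mcpt4, Tpsb2) was 5753.85 to 8131.06 unstimulated and 1164.03 to 1971.91 at 24 h in WT, and 7086.13 to 10071.3 and 2318.28 to 2427.23 in KO. Both lists were above background on both arrays of every group. The 3 T cell markers, also above background throughout, had sums of 2047.87 to 3964.46 unstimulated and 1312.97 to 1789.93 at 24 h in WT, and 3715.83 to 3749.49 and 1713.02 to 2186.29 in KO. The sum of 5 mesothelial and fibroblast markers was 587.857 to 595.205 unstimulated and 1712.2 to 1902.37 at 24 h in WT, and 603.127 to 698.019 and 2242.35 to 2386.56 in KO. Of these, Dcn rose by 2.84 log2 units in WT and 2.99 in KO and the other 4 did not pass the test, with Msln, Upk3b and Krt19 not well above background on both arrays at 24 h. Of the 3 neutrophil markers, S100a9 and Retnlg were not well above background on both arrays of any group, while S100a8 rose by 3.77 log2 units in WT and 4.49 in KO macrophages at 24 h. In these bulk samples fewer cells of a type and less RNA per cell cannot be told apart.

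The replicates differed in markers of steroid-producing cells, which make hormones from cholesterol. Mgarp had a log2 intensity of 11.21 in WT replicate 1 and 6.25 in WT replicate 2 unstimulated, against 6.17 and 8.29 in KO, and Hsd3b1 had 10.97 and 6.26 in WT against 6.72 and 8.96 in KO. Mgarp was well above background on 1 of 2 unstimulated arrays of each genotype. The list was not uniform: in WT macrophages 6, 3, 5 and 6 of the 6 markers were higher in replicate 1 at 0, 1, 4 and 24 h (median differences of 1.58, 1.36, 1.67 and 0.87 log2 units), and in KO macrophages 3, 1, 2 and 2 of 6 (-0.16, -0.25, -0.41 and -0.37). The summed intensity of the 6 markers was 3344.3 to 9597.73 in unstimulated WT macrophages and 4345.77 to 4938.65 in KO. The 18 sterol enzymes differed between the WT replicates too. In unstimulated WT macrophages 17 of 18 were higher in replicate 1, by a median of 0.44 log2 units (range -0.13 to 0.74), and at 1 h 16 of 18, by 0.40, where 49.2% and 47.6% of all genes and transcripts were higher in that replicate. At 4 h and 24 h, 7 and 5 of 18 were higher in WT replicate 1, with median differences of -0.02 and -0.14. In KO macrophages 11, 13, 7 and 8 of the 18 enzymes were higher in replicate 1 at 0, 1, 4 and 24 h. The part of these and the other cell type markers in the results was not tested.

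The sterol and fatty acid genes changed after LPS in steps that differed by time. No unstimulated samples were matched to the later times, so LPS and the hours in culture and lowered serum cannot be told apart. At 1 h a small group rose in both genotypes: Hmgcs1, Idi1, Cyp51, Hsd17b7, Insig1 and Scd1. They made up 6 of the 32 genes, where 2.59% of all genes and transcripts tested were higher in both genotypes, and 0 of the 32 were lower in both (3.38% of all). At 4 h 14 genes were lower in both genotypes and 5 higher (17.4% and 13.7% of all), and between 4 and 24 h 18 genes rose and 3 fell in both (13.6% and 12.5% of all). All changes were tested with limma over all genes and transcripts, with Benjamini-Hochberg adjustment and a threshold of 0.05. At 24 h 9 genes were above and 6 below the unstimulated level in both genotypes (11.3% and 14.1% of all). Cyp51 and Idi1 were higher at all 3 times in both genotypes, and Fdft1, the squalene synthase, passed the test at no time against unstimulated macrophages.

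In WT macrophages 7 of the 32 genes were higher and 1 lower at 1 h, against 3.38% and 5.12% of all genes and transcripts tested. At 4 h the counts were 6 higher and 15 lower, against 15.5% and 19.3%. At 24 h they were 13 and 8, against 13.5% and 17.0%. In KO macrophages 6 were higher and 0 lower at 1 h (3.09% and 4.35% of all), 11 higher and 6 lower at 24 h (12.7% and 15.9%). In the 4 h RNA labelled KO 5 were higher and 16 lower, against 16.2% and 19.7%. The lower calls at 4 and 24 h and the higher calls at 1 and 24 h thus made up a larger share of the 32 genes than of all genes. The excess was smallest for the lower calls at 24 h. All of the 32 but Dhcr7 and Fads2 had a probe well above background on every array, against 43.8% to 51.3% of all probes per channel. The shares are thus not of equally bright genes, and a share among detected features was not computed. The median log2 change of the 32 genes was 0.07, -0.43 and 0.13 in WT macrophages at 1, 4 and 24 h and -0.02, -0.55 and 0.29 in RNA labelled KO, where the median of all genes and transcripts lay between -0.02 and 0.00. Without the quantile step between arrays the split shifted downward at 4 h, to 3 higher and 19 lower in WT and 1 and 21 in the RNA labelled KO, and at 1 h to 5 and 3 in WT and 2 and 2 in KO. The counts at 24 h were then 13 and 5 in WT and 14 and 3 in KO. Of all calls over the whole array, the share that was higher moved too, at 4 h from 44.5% to 27.8% in WT and from 45.1% to 27.9% in the RNA labelled KO, and at 24 h from 44.3% to 52.9% in WT and from 44.4% to 53.8% in KO.

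**Figure D1:**
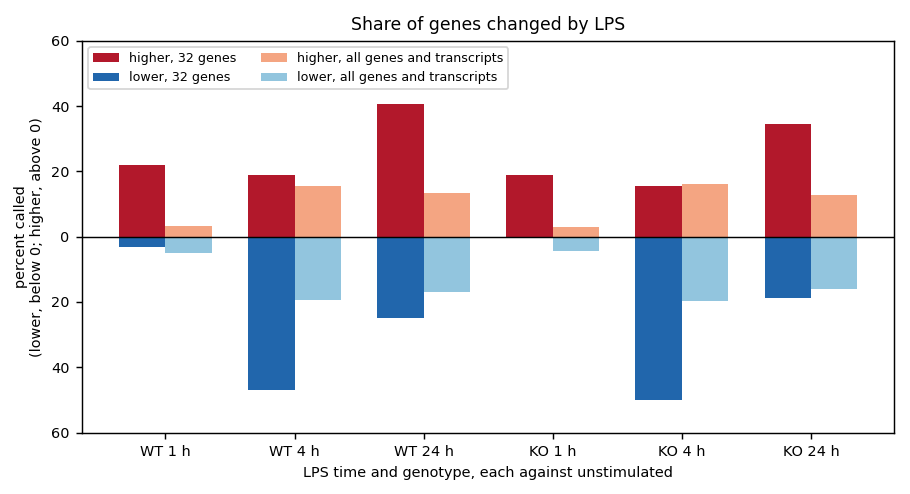
Percent of the 32 genes (dark bars) and of all genes and transcripts tested (light bars) that were higher (above 0) or lower (below 0) after LPS than in unstimulated macrophages of the same genotype, with an adjusted p under 0.05. The lower bars of the 32 genes are longest at 4 h, where 15 genes were called in WT and 16 in the RNA labelled KO, and the higher bars are longest at 24 h, with 13 and 11 genes.

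The number called at 1 h rested on single arrays. In WT macrophages it was 4 in all without replicate 1 and 5 without replicate 2 of the 1 h arrays. In KO macrophages it was 1 and 3 without replicate 1 or 2 of the unstimulated arrays, 2 without replicate 1 of the 1 h arrays, and 2 without either 24 h array. In KO macrophages the 1 h call was lost in 11 of 16 alternatives for Hsd17b7 (adjusted p up to 0.20), in 10 for Hmgcs1 (0.29), in 9 for Idi1 (0.25), in 7 for Cyp51 (0.41) and in 4 for Scd1 (0.28). In WT macrophages it was lost in 7 of 16 for Scd1 (adjusted p up to 0.64) and for Stard4 (0.33), in 6 for Fads1 (0.54), in 4 for Hsd17b7 (0.61) and in 3 each for Hmgcs1 (0.55) and Idi1 (0.51). Cyp51 and Insig1 in WT and Insig1 in KO macrophages were called at 1 h in every limma alternative that was run. At 24 h the number called was 11 in WT macrophages without replicate 1 and 11 in KO macrophages without replicate 2 of the 24 h arrays. The 4 h and 24 h arrays lay in another row of the slide than the unstimulated and 1 h arrays, so that a difference between rows and the change from 0 h to these times cannot be told apart.

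**Figure D2:**
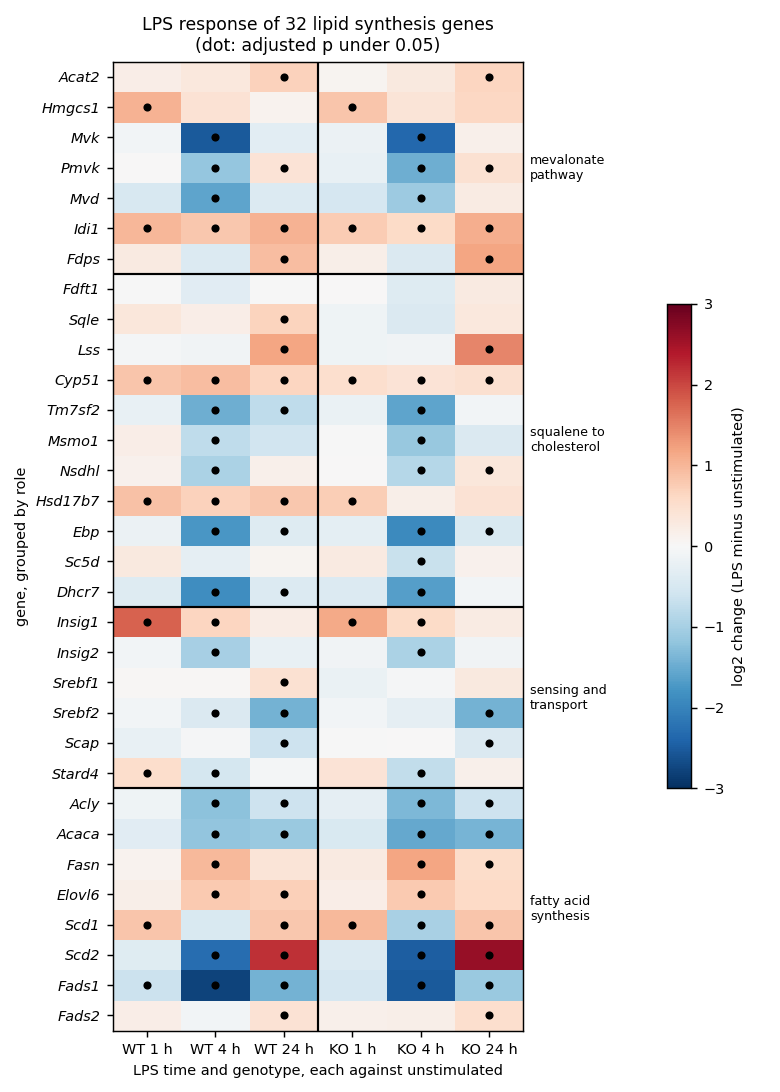
Log2 change of each of the 32 genes after 1, 4 and 24 h of LPS against unstimulated macrophages (colour), for WT and KO macrophages in columns and genes in rows, grouped by role. A black dot marks an adjusted p under 0.05. The deepest blue cells are Fads1, Mvk and Scd2 at 4 h, and the deepest red cells are Scd2 at 24 h, at 2.20 in WT and 2.62 in KO.

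In the mevalonate pathway Hmgcs1 and Idi1 rose at 1 h, and both kinases and the decarboxylase fell at 4 h. Hmgcs1, the cytosolic HMG-CoA synthase that feeds the pathway, had a log2 intensity of 12.45 and 11.95 in unstimulated WT macrophages (replicates 1 and 2), 13.61 and 12.87 after 1 h, 12.62 and 12.63 after 4 h and 12.14 and 12.45 after 24 h. In KO macrophages it had 11.92 and 12.11, then 12.77 and 12.94, 12.30 and 12.52, and 12.54 and 12.71. At 1 h both replicates of both genotypes stood above both unstimulated ones, by 1.04 ± 0.22 log2 units in WT (SE, adjusted p = 0.0072) and 0.84 ± 0.22 in KO (adjusted p = 0.032). At 4 and 24 h it passed the test in neither genotype.

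Idi1, which isomerises isopentenyl diphosphate, stayed up. Its log2 intensity was 11.75 and 11.18 in unstimulated WT macrophages, 12.72 and 12.23 after 1 h, 12.12 and 12.43 after 4 h and 12.42 and 12.59 after 24 h. Its KO level was 11.65 and 11.52 unstimulated, 12.29 and 12.39 at 1 h, 12.02 and 12.31 in the 4 h RNA labelled KO and 12.63 and 12.75 at 24 h. In each genotype every LPS sample stood above both unstimulated samples, by 1.01, 0.81 and 1.04 log2 units in WT and 0.75, 0.58 and 1.10 in KO at 1, 4 and 24 h, all past the test. The 4 h call was lost in 3 of 16 alternatives in WT (values of 0.52 to 1.10). It was lost in 5 of 16 in the RNA labelled KO (0.40 to 0.72), among them the fit without the quantile step.

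Mvk, the mevalonate kinase, showed the opposite course. Its log2 intensity in WT macrophages was 12.25 and 11.60 unstimulated, 12.09 and 11.60 after 1 h, 9.47 and 9.34 after 4 h and 11.56 and 11.65 after 24 h. The KO level was 11.59 and 11.54, 11.51 and 11.28, 9.14 and 9.26 (4 h RNA labelled KO), and 11.72 and 11.70. The 4 h samples of each genotype lay below all others, 5.74-fold below unstimulated in WT (log2 change -2.52 ± 0.19, adjusted p = 9.7e-08) and 5.15-fold in the RNA labelled KO (-2.36 ± 0.19, adjusted p = 1.9e-07), and by 24 h the difference from unstimulated no longer passed the test (-0.32 and 0.15). A second Mvk probe had log2 changes of -2.21 and -2.14.

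The kinase Pmvk and the decarboxylase Mvd, which act after Mvk, were lower at 4 h as well. Pmvk fell by 1.16 and 1.48 log2 units (WT and RNA labelled KO), with similar values on its second probe (-1.06 and -1.40). At 24 h Pmvk was slightly above its unstimulated level, by 0.41 and 0.46. This 24 h call was lost in 7 of 16 alternatives in WT (values of 0.32 to 0.67) and in 4 of 16 in KO (0.26 to 0.73). Mvd had a log2 intensity of 10.96 and 10.59 in unstimulated WT macrophages, 10.44 and 10.17 after 1 h, 9.16 and 9.23 after 4 h and 10.34 and 10.41 after 24 h. Its KO levels were 10.28 and 10.06, 9.83 and 9.52, 9.20 and 8.95 (RNA labelled KO), and 10.46 and 10.38. The 4 h samples were the lowest of each genotype. Its fall was 1.58 ± 0.15 in WT (adjusted p = 9.7e-07) and 1.09 ± 0.15 in the RNA labelled KO (adjusted p = 3.5e-05). Fdps, which makes farnesyl diphosphate, and Acat2, the thiolase of the first condensation, were not called at 4 h (-0.42 and -0.44, 0.31 and 0.28) and were higher at 24 h. Fdps rose from 13.25 and 12.63 to 13.90 and 13.85 in WT macrophages and from 12.69 and 12.70 to 13.87 and 13.90 in KO, with log2 changes of 0.94 and 1.19, and Acat2 rose by 0.70 and 0.65.

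Of the 11 enzymes from squalene to cholesterol, 5 fell in WT at 4 h and 6 in the RNA labelled KO. Dhcr7 and Ebp had the largest falls. Dhcr7, the dehydrocholesterol reductase of the last step, had a log2 intensity of 8.75 and 8.32 in unstimulated WT macrophages and 6.58 and 6.76 at 4 h, and it was 3.63-fold lower there (log2 change -1.86 ± 0.14, adjusted p = 1e-07). The KO samples had 8.42 and 8.20 and, in the 4 h RNA labelled KO, 6.66 and 6.63. Both of these samples and 1 of 2 WT samples at 4 h were not well above background, so the KO difference is at least 3.17-fold. For such a bound the lowest signal well above background on the array stands in where it exceeds the probe's own. Dhcr7 returned to 8.20 and 8.06 in WT and 8.14 and 8.30 in KO macrophages at 24 h.

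Ebp, a sterol isomerase, had 13.92 and 14.05 in unstimulated WT macrophages, 12.18 and 12.29 at 4 h and 13.46 and 13.74 at 24 h. The KO levels were 14.06 and 13.86, 12.15 and 11.95 (RNA labelled KO) and 13.55 and 13.45. It fell 3.36-fold and 3.75-fold at 4 h. At 24 h it was still called lower, by 0.39 and 0.46, but without the quantile step the WT value was 0.0054 and the KO value -0.06, neither of them called. Tm7sf2, a sterol reductase, had 10.97 and 10.82 in unstimulated WT macrophages and 9.76 and 9.09 at 4 h, and 10.52 and 10.18 in KO and 8.83 and 8.70 in the 4 h RNA labelled KO. It fell by 1.47 and 1.58. Nsdhl and Msmo1, which take part in the removal of methyl groups from the sterol, fell by 0.95 and 0.86 and by 0.76 and 1.14. The WT call of Msmo1 was lost in 4 of 16 alternatives, over which the log2 change was -1.13 to -0.39. Sc5d, a sterol desaturase, fell by 0.66 in the RNA labelled KO, and its WT value of -0.27 did not pass the test (adjusted p = 0.12).

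Cyp51, Lss and Sqle, in the same branch, were not called lower at 4 h, nor was Fdft1 (-0.35 in WT and -0.40 in the RNA labelled KO). Cyp51, the lanosterol demethylase, had 9.73 and 9.52 in unstimulated WT macrophages, 10.62 and 10.31 after 1 h, 10.46 and 10.62 after 4 h and 10.15 and 10.39 after 24 h. KO macrophages had 9.92 and 9.85, 10.52 and 10.24, 10.32 and 10.27, and 10.31 and 10.39. The rises of 0.84, 0.92 and 0.64 log2 units in WT and 0.50, 0.41 and 0.47 in KO passed the test, but without the quantile step the 4 h value of the RNA labelled KO was -0.01. Hsd17b7, a ketosteroid reductase of the pathway, rose at 1 h from 8.76 and 8.27 to 9.76 and 9.01 in WT and from 8.84 and 8.78 to 9.59 and 9.51 in KO macrophages, by 0.87 and 0.74, the KO call being lost in 11 of 16 alternatives.

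Lss, the lanosterol synthase, had 9.55 and 9.11 in unstimulated WT macrophages, 9.51 and 9.03 after 1 h, 8.96 and 9.47 after 4 h and 10.42 and 10.60 after 24 h. In KO macrophages it had 8.84 and 9.18, 8.999 and 8.75, 8.85 and 8.97, and 10.38 and 10.57. The 24 h samples lay above all others, 2.27-fold above unstimulated in WT (1.18 ± 0.21, adjusted p = 0.00044) and 2.76-fold in KO (1.47 ± 0.21, adjusted p = 7.5e-05). Sqle, the squalene epoxidase, had 12.20 and 11.52 in unstimulated WT macrophages, 12.44 and 11.94 after 1 h, 11.93 and 12.18 after 4 h and 12.43 and 12.61 after 24 h. In KO macrophages Sqle had 12.24 and 12.12, 12.07 and 12.05, 11.55 and 11.95, and 12.44 and 12.54. It was called in WT at 24 h (0.66 ± 0.21, adjusted p = 0.025), where the KO value was 0.31 ± 0.21 (adjusted p = 0.34). The difference between these responses was -0.35 and did not pass the test (unadjusted p = 0.14). The WT call of Sqle was lost in 4 of 16 alternatives, over which the value was 0.32 to 0.997.

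**Figure D3:**
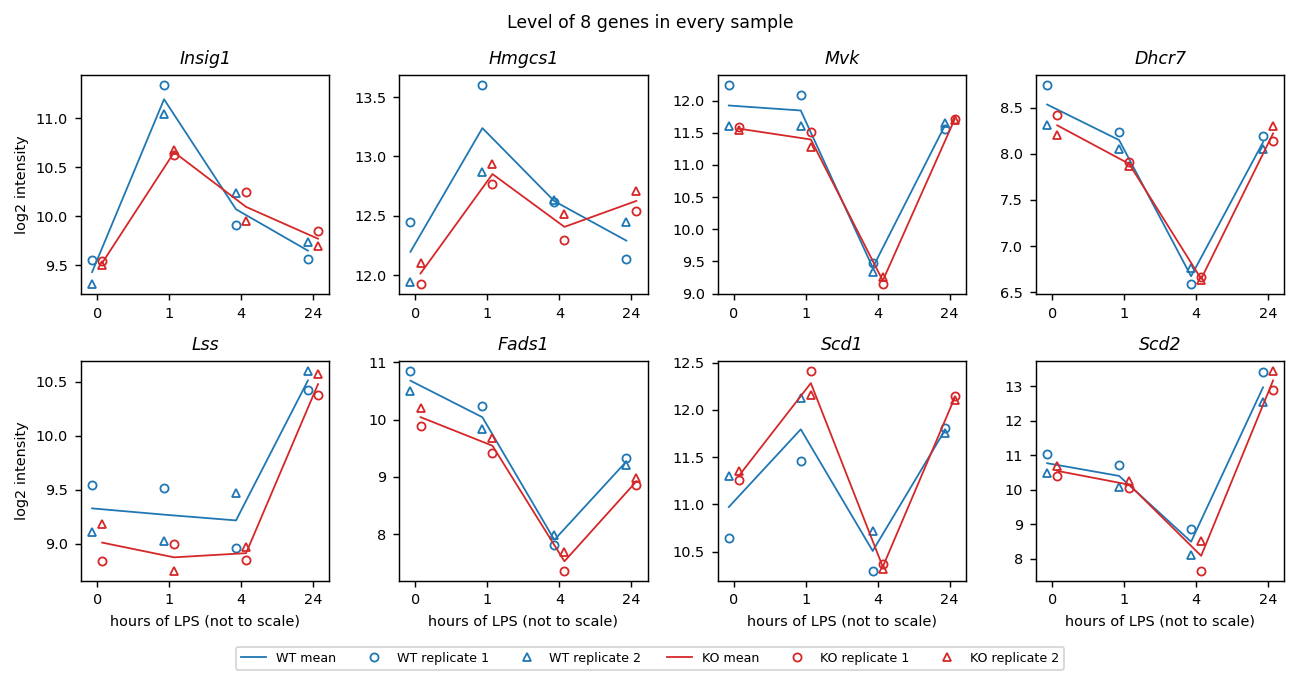
Normalised log2 intensity of 8 of the genes in every sample at 0, 1, 4 and 24 h of LPS (horizontal positions are not to scale), with WT in blue, KO in red, circles for replicate 1, triangles for replicate 2 and lines through the means of 2 samples. Each panel has its own vertical range. Insig1 and Hmgcs1 are highest at 1 h, Mvk, Dhcr7, Fads1 and Scd2 are lowest at 4 h, and Lss and Scd2 are highest at 24 h.

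Among the genes of sensing and transport, Insig1 had the largest change from unstimulated WT macrophages, at 1 h. INSIG1 holds the SREBP escort in the endoplasmic reticulum, and its gene is itself an SREBP target. Insig1 had 9.56 and 9.30 in unstimulated WT macrophages, 11.35 and 11.05 after 1 h, 9.91 and 10.24 after 4 h and 9.56 and 9.74 after 24 h. Its KO levels were 9.54 and 9.50, 10.63 and 10.68, 10.25 and 9.95 (RNA labelled KO), and 9.85 and 9.70. Both 1 h samples of each genotype were above all samples of the other times, 3.40-fold above unstimulated in WT (1.76 ± 0.15, adjusted p = 4.1e-06) and 2.19-fold in KO (1.13 ± 0.15, adjusted p = 0.00031). The difference between these rises was -0.63 and was not called. At 4 h Insig1 was still higher, by 0.64 and 0.57, but without the quantile step these values were 0.20 and 0.13 and were not called.

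Insig2, its paralogue, had 10.53 and 10.59 in unstimulated WT macrophages, 10.40 and 10.56 after 1 h, 9.42 and 9.72 after 4 h and 10.20 and 10.48 after 24 h. The KO samples had 10.50 and 10.47, 10.47 and 10.30, 9.70 and 9.37, and 10.34 and 10.45. The 4 h samples were the low ones, by 0.99 ± 0.14 in WT (adjusted p = 6.8e-05) and 0.96 ± 0.14 in the RNA labelled KO (adjusted p = 9.3e-05), and a second probe fell by 0.81 and 0.80. The paralogues thus stood on opposite sides of their unstimulated level at 4 h, Insig1 above and Insig2 below.

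Srebf2, which encodes the SREBP of sterol synthesis, gave different answers on its probes. On the brightest probe it had 11.85 and 11.85 in unstimulated WT macrophages, 11.91 and 11.64 after 1 h, 11.51 and 11.31 after 4 h and 10.31 and 10.57 after 24 h. The KO levels were 11.75 and 11.60, 11.64 and 11.54, 11.62 and 11.20, and 10.28 and 10.20. The 24 h samples lay below all others, by 1.41 ± 0.14 and 1.43 ± 0.14 (adjusted p = 3.8e-06 and 3.7e-06). A second probe was higher at 4 h and 24 h (0.92 and 0.57 in WT, 0.73 and 0.62 in KO), and the mean of both probes at 4 h was 0.24 in WT, where the brightest probe alone gave a called decrease of -0.44 (adjusted p = 0.029). At 4 h and 24 h the probes thus had opposite directions.

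Srebf1, which encodes the SREBP of fatty acid synthesis and is also an LXR target, had 6.999 and 7.30 in unstimulated WT macrophages, 7.19 and 7.18 after 1 h, 7.18 and 7.20 after 4 h and 7.62 and 7.60 after 24 h. In KO macrophages Srebf1 had 7.61 and 7.19, 7.31 and 7.11, 7.49 and 7.24, and 7.71 and 7.68. It was called in WT macrophages at 24 h (0.46 ± 0.15, adjusted p = 0.027), and the KO value was 0.30 with an adjusted p of 0.17. The WT call of Srebf1 was lost in 4 of 15 alternatives, over which the value was 0.31 to 0.87. Scap, the escort, was at 12.00 and 11.82 in unstimulated WT macrophages and at 11.37 and 11.20 at 24 h, and at 11.59 and 11.71 and then 11.16 and 11.26 in KO, lower by 0.62 and 0.44, and without the quantile step at -0.39 and -0.22 and not called. The KO call of Scap was also lost without replicate 2 of the unstimulated and without replicate 1 of the 24 h arrays.

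Stard4, which carries cholesterol between membranes, had 9.78 and 9.65 in unstimulated WT macrophages, 10.29 and 10.16 after 1 h, 9.10 and 9.29 after 4 h and 9.55 and 9.75 after 24 h. KO macrophages had 9.80 and 9.48, 10.21 and 9.89, 8.94 and 8.85, and 9.87 and 9.73. At 1 h it was higher in WT (0.52, adjusted p = 0.032, lost in 7 of 16 alternatives), and the KO value of 0.41 did not pass the test (adjusted p = 0.10). The difference between the genotypes, -0.11, was not called (unadjusted p = 0.55). At 4 h it was lower on this probe, by 0.52 and 0.74, while a second probe gave 0.53 and 0.56, and the mean of the probes was 0.01 in WT. The probes had the same direction at 1 h, where the second gave 0.71 and 0.59.

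In fatty acid synthesis the enzymes did not move together. Acly, which makes cytosolic acetyl-CoA from citrate, had 13.76 and 13.80 in unstimulated WT macrophages, 13.69 and 13.64 after 1 h, 12.49 and 12.59 after 4 h and 13.14 and 13.19 after 24 h. In KO macrophages Acly had 14.04 and 13.85, 13.76 and 13.61, 12.77 and 12.45, and 13.35 and 13.31. It was 2.36-fold and 2.53-fold lower at 4 h and 1.54-fold lower in both genotypes at 24 h, where without the quantile step the log2 changes of Acly were -0.23 and -0.22 and were not called. Acaca, the acetyl-CoA carboxylase that commits carbon to fatty acids, had 12.26 and 12.45 in unstimulated WT macrophages, 12.03 and 12.02 after 1 h, 11.002 and 11.32 after 4 h and 11.23 and 11.24 after 24 h. In KO macrophages Acaca had 12.88 and 12.55, 12.29 and 12.23, 11.14 and 11.24, and 11.39 and 11.27. It fell by 1.19 and 1.53 at 4 h and was still down by 1.12 and 1.39 at 24 h, with 2 dimmer probes lower by 0.14 to 0.55 at these times.

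Fasn, the fatty acid synthase that uses their product, was higher at 4 h. It had 7.07 and 6.84 in unstimulated WT macrophages, 7.02 and 7.10 after 1 h, 7.60 and 8.25 after 4 h and 7.22 and 7.48 after 24 h. In KO macrophages Fasn had 6.80 and 6.98, 7.17 and 7.13, 7.95 and 8.21, and 7.43 and 7.46. The 4 h samples stood above all others, by 0.97 ± 0.17 in WT (adjusted p = 0.00047) and 1.19 ± 0.17 in the RNA labelled KO (adjusted p = 7.3e-05). Elovl6, which lengthens the product of the synthase, rose at 4 h from 7.24 and 7.03 to 7.65 and 8.20 in WT and from 6.92 and 7.17 to 7.86 and 7.78 in the RNA labelled KO, by 0.79 and 0.77. Without the quantile step these Elovl6 values were 0.46 and 0.43 and were not called, and the call was lost in 4 of 15 alternatives in WT and 3 of 15 in the RNA labelled KO (adjusted p up to 0.28 and 0.13).

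The desaturases held the widest range of the 32 genes. Scd2, a stearoyl-CoA desaturase, had 11.05 and 10.50 in unstimulated WT macrophages, 10.72 and 10.09 after 1 h, 8.87 and 8.12 after 4 h and 13.41 and 12.54 after 24 h. In KO macrophages it had 10.41 and 10.69, 10.05 and 10.25, 7.66 and 8.52 (RNA labelled KO), and 12.89 and 13.45. In both genotypes the 4 h samples lay below and the 24 h samples above all others. It was 4.84-fold lower in WT and 5.51-fold lower in the RNA labelled KO at 4 h (log2 change -2.28 and -2.46, SE 0.38), and 4.59-fold and 6.15-fold above unstimulated at 24 h (2.20 and 2.62). From 4 h to 24 h it rose 22.2-fold in WT (4.47 ± 0.38, adjusted p = 7.3e-07) and 33.9-fold in KO (5.08 ± 0.38, adjusted p = 2.4e-07). Its replicates were also the most spread of the 32 genes, as the SE shows.

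Scd1, another stearoyl-CoA desaturase and a target of SREBP and LXR, had 10.64 and 11.30 in unstimulated WT macrophages, 11.46 and 12.13 after 1 h, 10.30 and 10.72 after 4 h and 11.80 and 11.76 after 24 h. In KO macrophages Scd1 had 11.25 and 11.35, 12.41 and 12.15, 10.36 and 10.32, and 12.15 and 12.11. It rose at 1 h (0.82 in WT, a call lost in 7 of 16 alternatives, and 0.98 in KO) and was again higher at 24 h (0.81 and 0.83). The 24 h call was lost in 4 of 16 alternatives in WT (values of 0.48 to 1.14) and in 3 of 16 in KO (0.78 to 1.01). At 4 h Scd1 was lower in the RNA labelled KO (-0.96 ± 0.23, adjusted p = 0.0036) and not called in WT (-0.47, adjusted p = 0.14), and the difference between the genotypes, -0.50, was not called (unadjusted p = 0.14).

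Fads1, which makes arachidonic acid, had 10.85 and 10.51 in unstimulated WT macrophages, 10.24 and 9.84 after 1 h, 7.82 and 7.98 after 4 h and 9.34 and 9.20 after 24 h. Its KO levels were 9.89 and 10.20, 9.41 and 9.67, 7.36 and 7.69, and 8.86 and 8.98. It fell 6.87-fold in WT (-2.78 ± 0.18, adjusted p = 2.4e-08) and 5.73-fold in the RNA labelled KO (-2.52 ± 0.18, adjusted p = 6.4e-08) at 4 h, and stood 2.66-fold and 2.18-fold below unstimulated at 24 h. Fads2, the desaturase that acts before it, was well above background only at 24 h, where it was at least 1.35-fold higher in WT and at least 1.29-fold higher in KO than unstimulated (adjusted p = 0.0071 and 0.0024).

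From 4 h to 24 h most of the genes turned upward. In WT macrophages 19 of 32 rose and 3 fell between these times, against 15.1% and 14.6% of all genes and transcripts, and in KO 21 rose and 3 fell, against 15.6% and 15.1%. Without the quantile step the counts were 24 and 1 in WT and 26 and 1 in KO, and the share of all calls that was higher went from 50.8% to 79.4% in WT and to 78.9% in KO. The genes that fell, Srebf2, Scap and Fasn, were the same in both genotypes, and without the quantile step the calls of Scap and Fasn were lost in both, with Scap in KO at 0.01. After Scd2, the largest rises were those of Mvk (2.20 in WT, 2.51 in KO) and Pmvk (1.57 and 1.93). Dhcr7 rose by 1.45 in WT, where 1 of 2 samples at 4 h was well above background, and at least 2.98-fold in KO. Ebp rose by 1.36 and 1.44.

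Other genes of these pathways were tested in the same fit. Of 22 related genes, 4 were higher and 8 lower in WT at 4 h, where 15.5% and 19.3% of all genes and transcripts were, and 4 and 8 in the RNA labelled KO (16.2% and 19.7% of all). At 24 h 3 were higher and 8 lower in WT (13.5% and 17.0% of all) and 4 and 8 in KO (12.7% and 15.9%), so that the higher counts were near the share of all genes. Lpin1, a phosphatidate phosphatase and SREBP target, was lower at all times, with log2 changes of -1.06, -3.46 and -2.54 in WT and -1.09, -3.29 and -2.23 in KO. At 4 h 1 of 2 samples of each genotype was well above background on any of its 2 probes. The log2 intensity of Lpin1 was then 6.32 and 6.39 in WT and 6.29 and 6.37 in the RNA labelled KO. These levels are near background, so the size of the 4 h fall is uncertain. Acsl3, an acyl-CoA synthetase, rose by 0.54 and 1.02 at 4 and 24 h in WT and by 0.50 and 1.14 in KO. Mbtps1, the protease that makes the first cut in SREBP, fell by 1.05 and 0.92 in WT and by 1.12 and 1.09 in KO at these times. Elovl5, Acss2, Mid1ip1 and Npc1 were lower in both genotypes at 4 h and 24 h, with log2 changes from -1.10 to -1.79.

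Of 11 genes of LXR and sterol efflux, 9 were lower and 1 higher in WT at 4 h (19.3% and 15.5% of all genes and transcripts) and 6 and 1 in the RNA labelled KO (19.7% and 16.2%). Ch25h, which hydroxylates cholesterol to an oxysterol that holds SREBP back, was the gene that rose. In WT macrophages it was not well above background unstimulated (6.30 and 6.20) and reached 9.92 and 8.80 after 1 h, 13.18 and 12.81 after 4 h and 15.92 and 14.17 after 24 h. In KO macrophages it rose from 7.18 and 7.07 by 3.30, 6.03 and 7.29 log2 units. At 24 h 2 of the 11 genes were higher and 6 lower in each genotype, against 13.5% and 17.0% of all in WT and 12.7% and 15.9% in KO. Nr1h3, which encodes LXR alpha, fell by 2.03 and 2.22 at 4 h and stood above unstimulated by 0.55 and 0.66 at 24 h. The exporter Abcg1 was lower at 4 h, with log2 changes of -1.98 and -1.80. Abca1, another exporter, had 11.21 and 11.53 in unstimulated WT macrophages and 10.36 and 9.56 at 4 h, a fall of 1.41 ± 0.23 log2 units (adjusted p = 0.0002), and 11.59 and 11.12 in KO and 11.80 and 11.35 in the 4 h RNA labelled KO (0.22, adjusted p = 0.55). The difference between these responses was 1.63 ± 0.26 and was not called (adjusted p = 0.61, unadjusted p = 0.00018), and the log2 KO/WT ratios at 4 h were 1.44 and 1.79 (adjusted p = 0.072, and 0.0035 with the replicate block). Soat1, which esterifies cholesterol, and Nceh1, which frees it, were lower at 4 h and 24 h in both genotypes, with log2 changes from -2.25 to -3.78.

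Loss of FURIN was compared with WT at each time. No gene of the 32 was called at 0, 1, 4 or 24 h by limma, where 0, 0, 5 and 9 of all genes and transcripts were (0%, 0%, 0.0135% and 0.0244%). Before adjustment 7, 7, 5 and 0 of the 32 had a p under 0.05, against 5.78%, 5.48%, 4.30% and 3.43% of all. With the replicate number, which is the dye orientation, as a block, 2 of the 32 were called lower at 0 h (Mvd and Fads1), 1 at 1 h (Mvd), 1 in the 4 h RNA labelled KO (Tm7sf2) and 0 at 24 h, where 1.06%, 0.574%, 0.566% and 0.585% of all were called in either direction. The methods' t-test, adjusted over all genes, called 0 at each time too. The SE of a log2 KO/WT ratio at a time was 0.09 to 0.43 over the 32 genes (median 0.14), and with 2 arrays a ratio of -0.64 (Fads1 at 0 h) was not called without the block. In the change of the ratio from 0 h to 1, 4 or 24 h, 0 of 32 and 0 of all genes and transcripts (0%) were called, with 2, 3 and 2 of 32 at an unadjusted p under 0.05, against 1.39%, 2.90% and 3.33% of all.

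The mean ratio was below 0 for 21 of 32 genes at 0 h, 26 at 1 h, 25 in the 4 h RNA labelled KO and 11 at 24 h. The median ratio of all genes and transcripts at these times was 0.0008, -0.0039, -0.0007 and 0.0037. As no gene of the 32 and no change of the ratio was called, a trend over time was not shown. Both arrays were below 0 for 10, 17, 17 and 4 genes and above 0 for 7, 3, 2 and 11. In unstimulated macrophages replicate 1 was below 0 for 22 genes and replicate 2 for 13. On these arrays Mgarp, the steroid cell marker whose levels are given above, was higher in WT RNA in replicate 1 and in KO RNA in replicate 2, and its part in the ratios of the 32 genes was not tested.

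**Figure D4:**
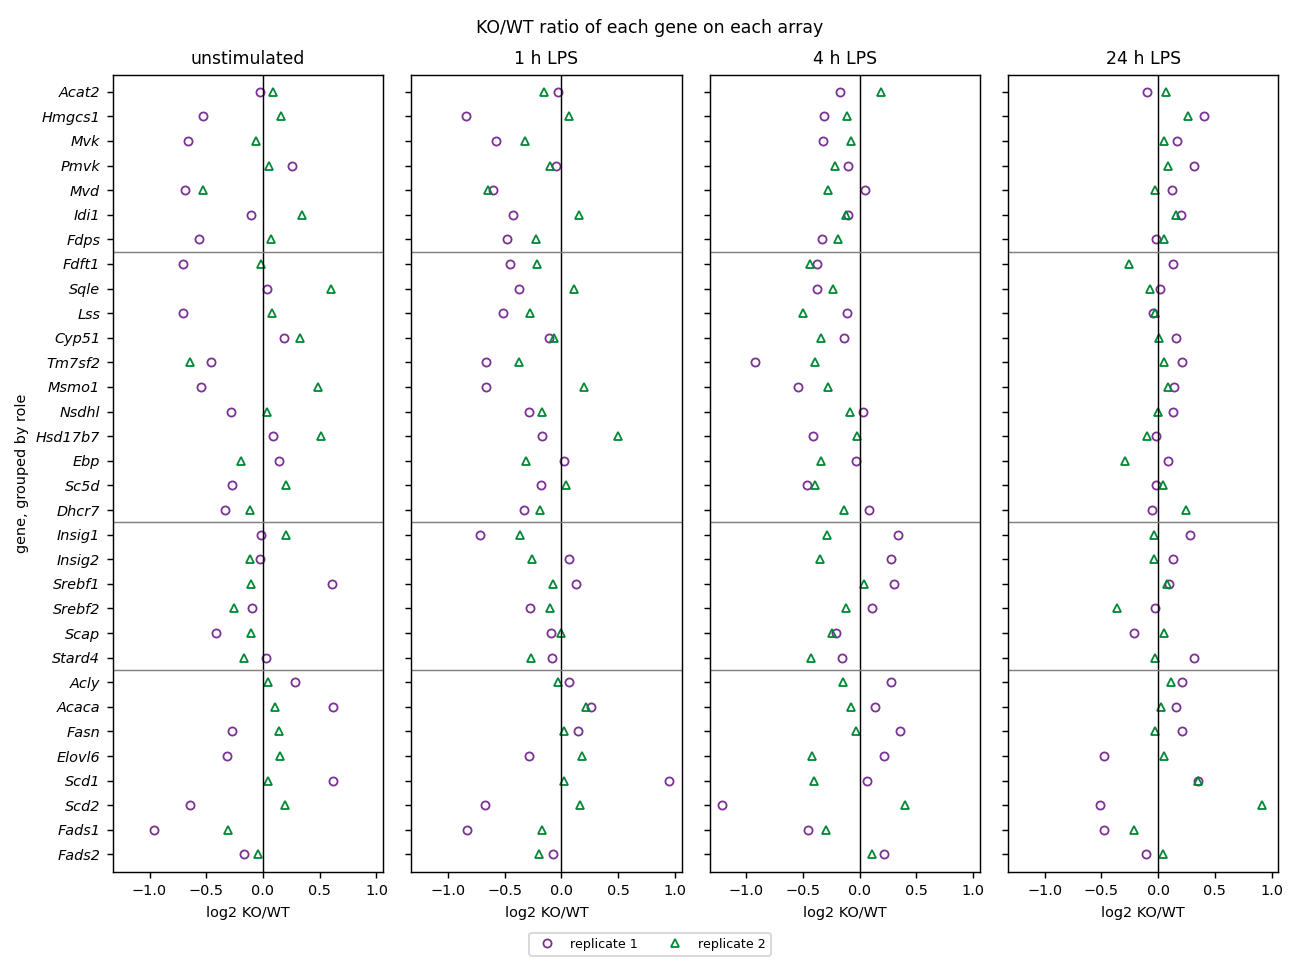
Log2 KO/WT ratio of each of the 32 genes (rows, grouped by role) on each array, in a panel for each time, with circles for replicate 1 and triangles for replicate 2; the line marks equal levels. At 0 h 22 circles and 13 triangles lie left of 0, at 24 h 12 and 13, and Fads1 is left of 0 on all 8 arrays.

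The genes with the largest ratios of the same sign on both arrays differed in part between times. In unstimulated macrophages the largest decreases were Fads1 (-0.96 and -0.31), Mvd (-0.68 and -0.53) and Tm7sf2 (-0.46 and -0.64), and the largest increases Acaca (0.62 and 0.11), Scd1 (0.61 and 0.05) and Sqle (0.04 and 0.60). At 1 h the decreases were Mvd (-0.61 and -0.65), Insig1 (-0.71 and -0.37) and Tm7sf2 (-0.66 and -0.38), and the increases Scd1 (0.95 and 0.03), Acaca (0.26 and 0.21) and Fasn (0.15 and 0.03). In the 4 h RNA labelled KO they were Tm7sf2 (-0.93 and -0.39), Sc5d (-0.46 and -0.39) and Msmo1 (-0.54 and -0.28) against Srebf1 (0.31 and 0.04), with Fads2 not well above background. At 24 h they were Fads1 (-0.48 and -0.22), Srebf2 (-0.02 and -0.37) and Hsd17b7 (-0.02 and -0.10) against Scd1 (0.35 and 0.35), Hmgcs1 (0.41 and 0.26) and Pmvk (0.31 and 0.09). The lowest adjusted p of any of the 32 genes at a single time was 0.18.

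As the mean over the 4 times, 1 of 32 genes was called, Mvd, lower in KO (0.322% of all genes and transcripts were called lower and 0.244% higher). Of the 22 related genes 1 was called, Acss2, also lower, with log2 KO/WT ratios from -0.46 to -0.04 on the 8 arrays. Of the 11 genes of LXR and sterol efflux 0 were called. Mvd, the mevalonate decarboxylase, had log2 KO/WT ratios of -0.68 and -0.53 unstimulated, -0.61 and -0.65 at 1 h, 0.05 and -0.28 in the 4 h RNA labelled KO and 0.12 and -0.03 at 24 h. The low ratios are those of 0 and 1 h, and those of 4 and 24 h lie on both sides of 0. Its mean ratio was -0.33 ± 0.05 (adjusted p = 0.046), and the call was lost in 14 of 17 alternatives, among them each of the 8 that leave out an array and the fit without both 4 h arrays, with adjusted p up to 0.20. Fads1 (-0.46 ± 0.09, adjusted p = 0.078), below 0 on 8 of 8 arrays, and Tm7sf2 (-0.40 ± 0.07, adjusted p = 0.053), on 6 of 8, had larger mean ratios and were not called. With the replicate block 7 of 32 were called as the mean over times (5.99% of all in either direction): Mvd, Fads1, Tm7sf2, Mvk, Fdps and Fdft1 lower and Scd1 higher. Scd1 was above 0 on 7 of 8 arrays, with a mean of 0.25 ± 0.11 (adjusted p = 0.46 without the block).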

How the data were processed

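RNA of KO and WT macrophages was hybridised on Agilent mouse arrays of 62976 spots, scanned and read by the authors with Agilent Feature Extraction 10.7.3. The deposited scanner files hold spot intensity values with no normalization, and the files lack the mean of pixels that had been planned for, so the median was used. The deposited table of log2 Cy5/Cy3 ratios, normalized by the authors (r with the scanner values 0.665 to 0.746), was an alternative.

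Here normexp (offset 50), loess within and quantile normalization between arrays were run in limma 3.58.1 (R 4.3.3). Spots were averaged per probe, and the brightest probe stood for a gene. Of 55681 probes, 27509 had a gene symbol (20887 genes). Features with a mean log2 intensity under 6 were left out, as in the study's methods, and 43.8% to 51.3% of probes per channel were well above background. KO/WT ratios (1 coefficient per time, 4 residual df, 36947 features) and LPS changes within a genotype (separate-channel fit, spot correlation 0.116, 36927 features) were tested with lmFit and eBayes, adjusted by Benjamini-Hochberg over all features, threshold 0.05. The scripts were tested on simulated data. The methods' t-test, other normalizations, filters, the mean of probes, a replicate block and leaving out arrays were alternatives. The number of arrays limits the precision.

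The genes, role lists and other lists were chosen with earlier results of these data known. Named were set genes of each role, the 2 largest rises and falls per role and time among genes called in both genotypes, the 3 largest ratios of each sign per KO/WT comparison among genes of the same sign on both arrays, and any gene called between genotypes. All arrays were on 1 slide.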

Additional observations from a re-analysis of the deposited data

How the results depend on the processing

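In the KO/WT comparison Mvd was the 1 gene called as the mean over times. The count was 0 from the processed signals, with Aquantile, with loess only, with the mean of probes, from the deposited log ratios, and without both 4 h arrays (chosen after seeing the data), and 0 to 0 with an array left out. With the replicate block it was 7, and 2 at 0 h (Mvd, Fads1), 1 at 1 h (Mvd) and 1 at 4 h (Tm7sf2). The replicate number, which is also the dye orientation, had correlated deviations over 6 pairs of times (r 0.475 to 0.679 for the ratios, 0.339 to 0.565 for WT and 0.214 to 0.337 for KO levels), and its term was called for 3629 genes and transcripts. The block moved no LPS total by over 1.5 times, and the 1 h counts of lower genes went from 1 to 2 in WT and 0 to 1 in KO. At 1 h the processed signals gave 4 genes in WT and 2 in KO. The methods' t-test, adjusted, gave 0, 2 and 0 in WT and 0, 3 and 1 in KO at 1, 4 and 24 h, and 0 and 0 from 4 to 24 h, with 3, 16 and 8, then 5, 21 and 19, and 17 and 22 at an unadjusted p under 0.05. With an array left out the counts were 4 to 8, 17 to 21 and 11 to 21 in WT and 1 to 5, 19 to 21 and 11 to 19 in KO, and 17 to 22 and 17 to 24 from 4 to 24 h. Directions reversed with loess only for Ebp (WT 24 h, 0.0054), Cyp51 (KO 4 h, -0.0111) and Scap (KO 24 against 4 h, 0.0118), and with the mean of probes for Srebf2 (WT 4 h, 0.24) and Stard4 (WT 4 h, 0.0057, and 24 h, 0.42), since their probes differ in direction. The cause of the other changes was not tested. The filter moved no total by over 1.5 times, and with a minimum of 8 the KO 4 h count of higher genes went from 5 to 3 and the 1 h counts of lower genes from 1 to 2 in WT and 0 to 2 in KO.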
